A study of Homo sapiens with 2 samples.

Results

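A group of 10 genes encoding SR-related proteins of nuclear speckles carried 111 of the 20499 peaks in a NUDT21 eCLIP list from J-Gamma1 cells. The genes were SRRM1, SRRM2, ARGLU1, LUC7L, LUC7L2, LUC7L3, TRA2A, TRA2B, SON and PNN. A peak was given to a gene when its midpoint lay in the gene body of GENCODE 44, and counting any overlap also gave 111 peaks. The genes were chosen by their content of peaks in this same list, so the number and height of their peaks are given as a description. J-Gamma1 is an established T-cell acute lymphoblastic leukemia line of the Jurkat lineage. The series held 2 samples, namely the NUDT21 immunoprecipitation and 1 input, and only the peaks of the immunoprecipitation were used here. Both samples came from this 1 line and were prepared alike, by UV-C crosslinking on ice (254 nm, 400 mJ per irradiation), 15 min of lysis and a 5 min digestion with 40 U of RNase I. There was no replicate and the list gives no read totals, so depth is unknown, no difference was tested, and each interval is an exact Clopper-Pearson 95% interval that covers counting error only.

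NUDT21, also called CFIm25, is the subunit of cleavage factor I that recognises UGUA in nascent transcripts and takes part in the choice of polyadenylation sites. Nuclear speckles are bodies of the nucleus rich in splicing factors, and many of their proteins carry stretches of arginine and serine called RS domains. SRRM2 and SON are scaffolds of the speckle, SRRM1 is a splicing coactivator, and PNN (pinin) binds SR proteins and the exon junction complex. ARGLU1 is an arginine- and glutamate-rich modulator of splicing, the LUC7L proteins belong with the U1 snRNP at 5' splice sites, and TRA2A and TRA2B activate exons by binding GAA-rich RNA. Many genes of this kind produce transcripts that are removed by nonsense-mediated decay (NMD) through exons that carry an early stop, known as poison exons. The label fitted the coding sequences, in which arginine and serine made up between 20.4% of codons in SON and 40.3% in SRRM2, beside 14.1% in the uncovered coding sequence of other genes that had a peak over coding bases.

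To ask which parts of these transcripts NUDT21 was recovered on, each peak was assigned to the region under its midpoint, with coding sequence (CDS) placed before 3'UTR where transcripts differed. The CDS held 74 of the 111 peaks, or 66.7% (57.1 to 75.3). The 3'UTRs held 16 peaks (14.4%), introns 16, exons of noncoding transcripts 4 and a 5'UTR 1. Of all 20499 peaks, 30.9% lay in CDS, 18.4% in 3'UTRs and 38.0% in introns, but most peaks of the list are low and the low ones are mostly intronic. Among peaks of 5 or more steps, a step being the smallest unit of the deposited Score, the CDS share was 71.8% (62.1 to 80.3) in the 10 genes and 59.9% (58.9 to 60.9) elsewhere, and the intron shares of 8.74% and 8.35% differed by less than counting error. Among the 74 CDS peaks, 23 also lay in a 3'UTR of another transcript, and for 21 of these a transcript annotated for NMD covered the midpoint. With 3'UTR placed first, the CDS share of the 10 genes was 44.1% and the 3'UTR share 35.1%. The shares of the whole list and of the peaks elsewhere were taken only with CDS placed first. Whether the CDS share of the 10 genes exceeds theirs in the reversed order was therefore not tested. The authors placed a larger share of the 20499 peaks in 3'UTRs than the 18.4% given here.

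Related gene families gave other distributions in the same library. The SR splicing factors, which bind exons through RNA recognition motifs, had 67 peaks in 8 of 12 genes, with 23.9% (14.3 to 35.9) in CDS and 46.3% in 3'UTRs. The hnRNP genes, whose proteins package nascent RNA, had 74 peaks in 14 of 20 genes, with 27.0% (17.4 to 38.6) in CDS and 37 of the 74 in 3'UTRs. The other speckle and SR-related genes had 246 peaks in 28 of 35 genes, with 45.1% (38.8 to 51.6) in CDS and 24.8% in 3'UTRs. These include 17 peaks of the noncoding RNA MALAT1, and the 34 protein-coding genes of that family alone had 48.5% (41.8 to 55.1) in CDS. The intervals of the CDS share of all 3 families lay below that of the 10 genes. With 3'UTR placed first the CDS shares were 5.97% in the SR splicing factors, 18.9% in the hnRNP genes and 21.1% (16.2 to 26.8) in the other speckle genes (22.7% without MALAT1), beside 44.1% (34.7 to 53.9) in the 10 genes. With SRRM2 and SON left out, the 10 genes' CDS share was 55.7% (42.4 to 68.5), whose interval overlapped that of the other speckle genes.

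**Figure D1:**
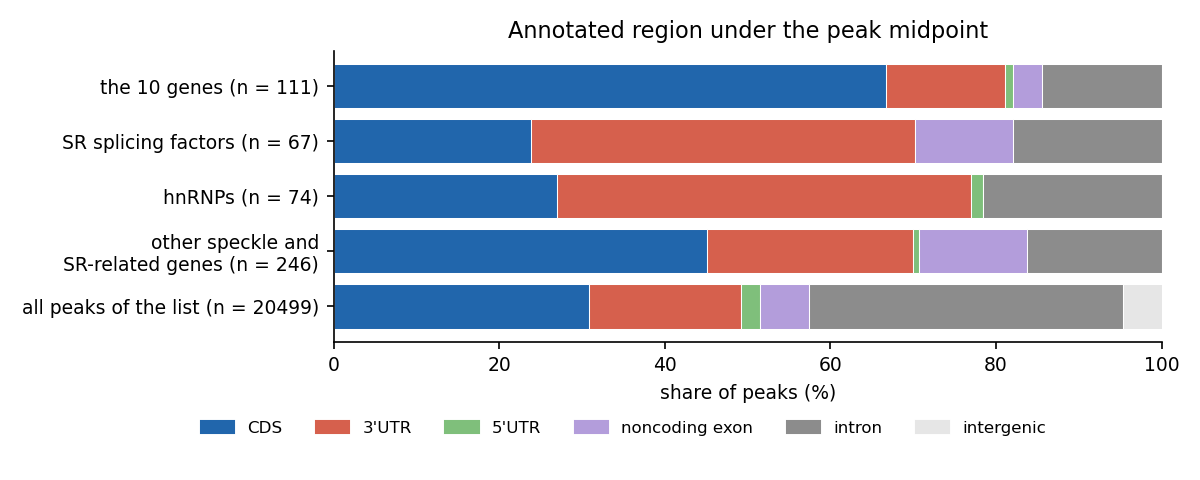
Share of peaks (%, horizontal axis) by the annotated region under the midpoint, for the 10 genes, the 3 related families and the whole list, where n is the number of peaks. CDS takes 66.7% of the bar of the 10 genes and between 23.9% and 45.1% of those of the related families.

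The deposited Score took only whole multiples of 0.228, called steps here, and a peak's height is given in steps. Of the 111 peaks, 103 reached 5 or more steps (92.8%, 86.3 to 96.8), against 42.3% of all peaks of the list. The same share was 94.0% in the SR splicing factors, 83.8% in the hnRNP genes and 88.6% in the other speckle genes, so a high share was common to all these families. Median height was 15 steps in the 10 genes (quartiles 9 and 18), 3 in the whole list, 10 in the SR splicing factors, 8 in the hnRNP genes and 8.5 in the other speckle genes. All 74 CDS peaks reached 5 steps, with a median of 17, whereas 82.1% of CDS peaks elsewhere did, with a median of 8. The list held 333 peaks of 17 or more steps, and 43 of them lay in the 10 genes.

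**Figure D2:**
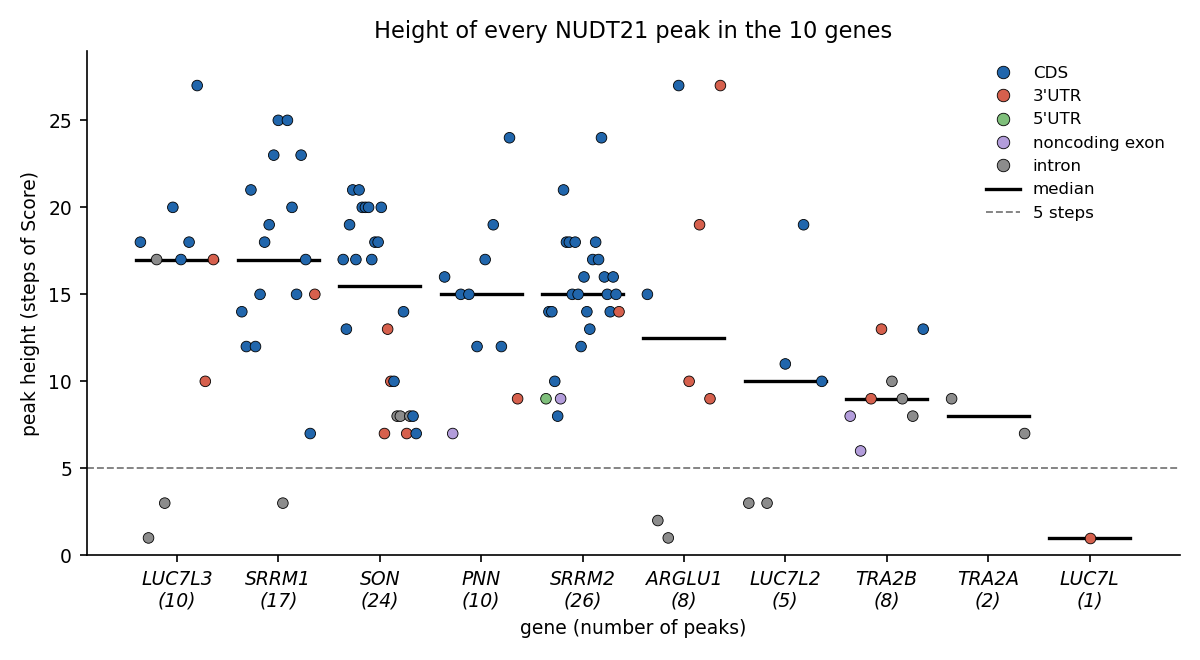
Height of each of the 111 peaks in steps of Score, by gene, with peaks placed from the 5' to the 3' end of the gene from left to right and coloured by region. Black bars are medians, the dashed line marks 5 steps, and all 8 points below it lie in introns or in the single peak of LUC7L.

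The false discovery rate (FDR) of the peak caller was under 0.05 for 0.0927% of the list, which is 19 peaks, and 6 of these (5.41% of the 111) belonged to SRRM1, LUC7L3 and ARGLU1. All 6 lay in CDS. The FDR was 1 for 100 of the 111 peaks, so height and fold enrichment rather than FDR separate most of them. Because the unit of Score is not stated, fold enrichment was read by assumption as the ratio of Score plus 1 to local background plus 1. Its median was 2.70 in the 10 genes and 1.61 in the whole list, and its maximum was 6.52.

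SRRM1 (ENSG00000133226.19, chr1:24631716-24673281, plus strand) had 17 peaks, 15 in CDS, 1 in the 3'UTR and 1 in an intron. They ranged from 3 to 25 steps with a median of 17, and touched 14 of the 17 coding exons of the canonical transcript. Of these, 3 passed the FDR. The first had 23 steps, a fold enrichment of 5.69 and an FDR of 0.00633. The second had 25 steps, a fold enrichment of 6.30 and an FDR of 0.0017. The third had 20 steps, a fold enrichment of 5.20 and an FDR of 0.0296. Their sequences are shown because they carry the gene's FDR calls, in hg38 and on the gene strand, and here as below UGUA (TGTA in DNA) and GAAGAA are written in capitals wherever they occur. None of the 3 held either motif.
SRRM1 chr1:24654887-24655157: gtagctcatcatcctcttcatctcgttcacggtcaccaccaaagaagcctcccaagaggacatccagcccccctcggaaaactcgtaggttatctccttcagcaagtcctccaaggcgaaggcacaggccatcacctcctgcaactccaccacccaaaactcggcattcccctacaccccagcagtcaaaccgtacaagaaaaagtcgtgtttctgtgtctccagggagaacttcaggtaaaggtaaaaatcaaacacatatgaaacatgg
SRRM1 chr1:24666887-24666963: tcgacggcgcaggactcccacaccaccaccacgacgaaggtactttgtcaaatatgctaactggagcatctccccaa
SRRM1 chr1:24669240-24669496: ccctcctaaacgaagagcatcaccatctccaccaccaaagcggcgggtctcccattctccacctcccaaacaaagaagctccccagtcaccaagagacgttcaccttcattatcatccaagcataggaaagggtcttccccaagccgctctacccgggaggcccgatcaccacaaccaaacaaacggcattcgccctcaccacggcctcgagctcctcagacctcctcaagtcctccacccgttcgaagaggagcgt

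A second SRRM1 peak of 25 steps, at chr1:24660730-24660836, had a fold enrichment of only 2.23 and an FDR of 1. The equal heights and unequal ratios differ through the local background, which solved to 2.00 there and to 0.0619 at the 25-step peak that passed. High backgrounds were found at other tall peaks of the 10 genes as well. A background of 0.95 or more was found at 23 of the 111 peaks (20.7%, 13.6 to 29.5), 22 of them in CDS, and at 1.61% of the other peaks. The shares were 22.3% and 3.84% once peaks under 5 steps were set aside. All 23 peaks had 14 or more steps. Among peaks of 5 or more steps the median height was 15 in the 10 genes and 8 elsewhere. Peaks of like height were not compared, so these shares do not show a trait particular to the 10 genes. Whether the background comes from the input or from neighbouring signal of the antibody library is not stated, and its part in the fold enrichments was not tested.

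**Figure D3:**
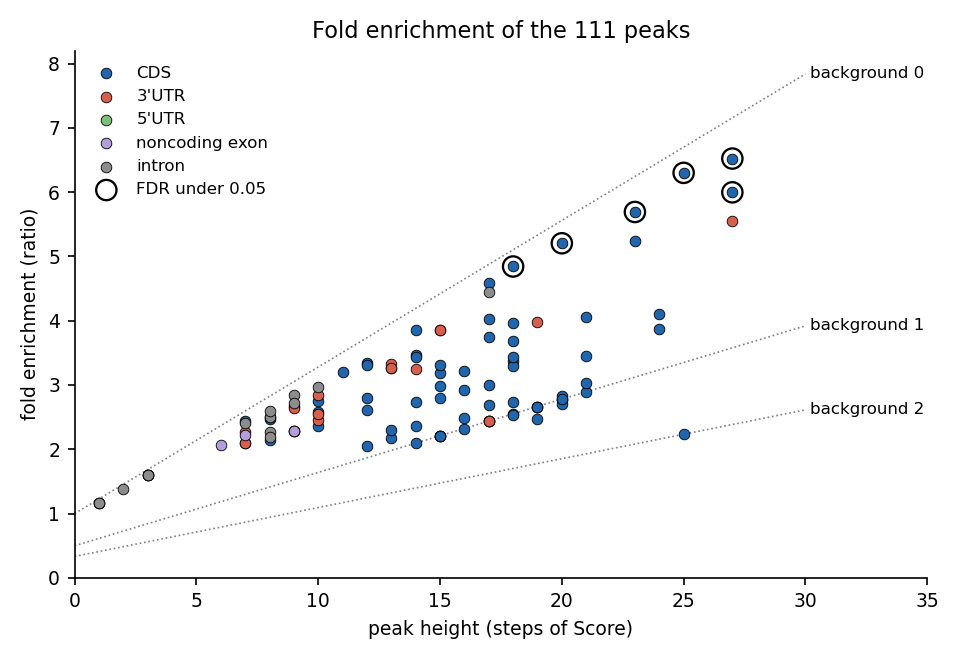
Fold enrichment (ratio) against height in steps for the 111 peaks, coloured by region, with dotted lines where the local background equals 0, 1 and 2. The 6 circled peaks with an FDR under 0.05 run along the line of low background, while the lowest point at 25 steps lies on the line of background 2.

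LUC7L3 (ENSG00000108848.16, chr17:50719565-50756219, plus strand) had 10 peaks, 5 in CDS, 2 in the 3'UTR and 3 in introns, with a median of 17 steps. Its peak at chr17:50745755-50746034 had 27 steps, the highest fold enrichment of the group at 6.52 and an FDR of 0.00159. The peak at chr17:50744674-50744845 had 18 steps, a fold enrichment of 4.84 and an FDR of 0.0116. Both also lay in a 3'UTR of another transcript, and a transcript annotated for NMD covered each midpoint. Over the whole peak, A and G made up 77.9% of the taller one and 58.7% of the other. In the SRRM1 peaks shown whole above, the share ran from 44.4% to 48.1%. Only the 30 nt of each LUC7L3 peak with most A and G are shown. The window of the taller peak consists of A and G throughout (100%) and holds a GAAGAA, in capitals. That of the other is 73.3% A and G. Both window shares are high by that choice and cannot be compared with the whole SRRM1 sequences.
LUC7L3 chr17:50745808-50745837: gggagagagaaaggGAAGAAagagaaagga
LUC7L3 chr17:50744674-50744703: aagaaaaacaaatggaagtttgtgaagtat

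A further LUC7L3 peak, at chr17:50737007-50737062, was the tallest intron peak of the 10 genes, with 17 steps, a fold enrichment of 4.44 and an FDR of 0.891. Its midpoint lay in canonical intron 2, and 20 of its 56 nt lay in that exon, so the peak spanned a 5' splice site and held a UGUA in the intron.
LUC7L3 chr17:50737007-50737062: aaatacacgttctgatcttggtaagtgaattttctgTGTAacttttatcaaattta

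LUC7L and LUC7L2, which encode close homologs of LUC7L3, held far fewer peaks. LUC7L2 (chr7:139340359-139423457, plus strand) had 5 peaks. Its 3 CDS peaks stood at 11, 19 and 10 steps and all 3 also lay in a 3'UTR of another transcript. The remaining 2 lay in canonical intron 1 at 3 steps each, and started 476 nt apart with an equal length of 271 nt. That spacing was the most frequent one in the list, found for 2001 neighbouring pairs. LUC7L (chr16:188969-229463, minus strand) had a single peak in a 3'UTR at 1 step, with a fold enrichment of 1.17. The levels of the 3 mRNAs in these cells are not given by the list, and their part in this order was not tested.

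ARGLU1 (ENSG00000134884.15, chr13:106541673-106568137, minus strand) had 8 peaks, with 2 in CDS, 4 in the 3'UTR and 2 in introns. The CDS peak at chr13:106544027-106544149 had 27 steps, a fold enrichment of 5.997 and an FDR of 0.00902. It lay in the last coding exon and was 72.4% A and G, with 2 copies of GAAGAA and no UGUA.
ARGLU1 chr13:106544027-106544149: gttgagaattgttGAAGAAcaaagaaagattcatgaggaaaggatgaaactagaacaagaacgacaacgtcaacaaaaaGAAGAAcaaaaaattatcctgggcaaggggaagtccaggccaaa

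The 3'UTR peak of ARGLU1 at chr13:106543327-106543494 was as tall, with 27 steps, a fold enrichment of 5.55 and an FDR of 0.058. The 4 3'UTR peaks stood at 27, 9, 19 and 10 steps from the distal to the proximal one. They lay 1737 to 2170 nt from the end of the canonical transcript and 15 to 247 nt from the end of the nearest transcript of any kind. The 2 taller ones each held 1 UGUA and the 2 lower ones held none, while the 2 intron peaks reached only 1 and 2 steps.

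PNN (ENSG00000100941.9, chr14:39175183-39183220, plus strand) had 10 peaks, with 8 in CDS, 1 in the 3'UTR and 1 in an exon of noncoding transcripts. Peaks covered 57.1% of its coding bases. Its tallest peak, at chr14:39181317-39181703, had 24 steps and a fold enrichment of 4.10. The last coding exon (1358 coding nt) held 4 peaks of 12 to 24 steps, and the 3'UTR peak downstream of it stood at 9 steps with 3 copies of UGUA. The 5'-most peak of PNN, at 16 steps, also lay in the antisense gene PNN-AS1, and the list has no strand to tell them apart.

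SRRM2 (ENSG00000167978.19, chr16:2752626-2772538, plus strand) had the most peaks, 26, of which 23 lay in CDS. They ranged from 8 to 24 steps with a median of 15. Its fold enrichments stayed between 2.06 and 4.07 and its FDR was 1 throughout. A single coding exon of 6701 nt held 16 of the peaks, at 12 to 24 steps, and 11 CDS peaks of the gene also lay in 3'UTRs of other transcripts. The tallest, at chr16:2766911-2766998, had a fold enrichment of 3.87. Only 1 of the 26 peaks held a UGUA on the gene strand, and that was the 14-step peak in the 3'UTR.

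SON (ENSG00000159140.23, chr21:33543038-33577481, plus strand) had 24 peaks, with 17 in CDS, 4 in 3'UTRs and 3 in introns. Its coding exon of 5916 nt held 11 peaks of 13 to 21 steps with a median of 19. The 12 peaks downstream of that exon ranged from 7 to 20 steps with a median of 8. Of the SON peaks of 17 or more steps, 10 of 12 lay in that exon, which makes up 81.3% of the coding bases. In SRRM2, 7 of 8 such peaks lay in the long exon, which makes up 81.2%, so in both genes the count was close to the exon's share of the coding sequence. The 4 3'UTR peaks belonged to transcripts that end early, and lay 17276 to 19403 nt from the canonical end. The peak at chr21:33576426-33576584, with 7 steps, was counted in CDS because another transcript codes there. In the canonical transcript it lay in the 3'UTR, 976 nt from the end. The midpoints of 5 of the 3'-most SON peaks, at 7 to 14 steps, also lay in DONSON, a DNA replication gene, so their origin cannot be told apart.

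TRA2B (ENSG00000136527.19, chr3:185914558-185938103, minus strand) had 8 peaks of 6 to 13 steps and a different layout. Only 1 lay in CDS, at chr3:185918339-185918394, with 13 steps, and 30 of the 864 canonical coding bases (3.47%) were under a peak. The peaks at chr3:185931539-185931646, with 13 steps and a fold enrichment of 3.32, and at chr3:185931695-185931828, with 9 steps, lay in an exon inside canonical intron 1. The transcripts that hold it are an NMD transcript and others annotated as retained intron or without a defined CDS. In TRA2B this exon is known as a poison exon through which the protein limits its own mRNA. Both peaks held 1 UGUA, and 30 nt around each are shown on the gene strand, the taller first.
TRA2B chr3:185931533-185931562: gtttatgtgtcccTGTAtattttgctaaac
TRA2B chr3:185931693-185931722: cagaagtcccactTGTAgaatattgagcaa

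The other 5 TRA2B peaks comprised 3 in canonical intron 1, at 8, 9 and 10 steps, and 2 in exons of noncoding transcripts, at 6 and 8 steps. The exons of noncoding transcripts alone, NMD transcripts included, held 6 of the 111 peaks (5.41%), and 4 of the 6 were those of TRA2B. TRA2A (chr7:23504780-23532041, minus strand), the paralog, had 2 peaks of 48 nt, both in canonical intron 1, at 7 and 9 steps. None lay in an annotated exon of TRA2A, and none of its 846 coding bases was under a peak.

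**Figure D4:**
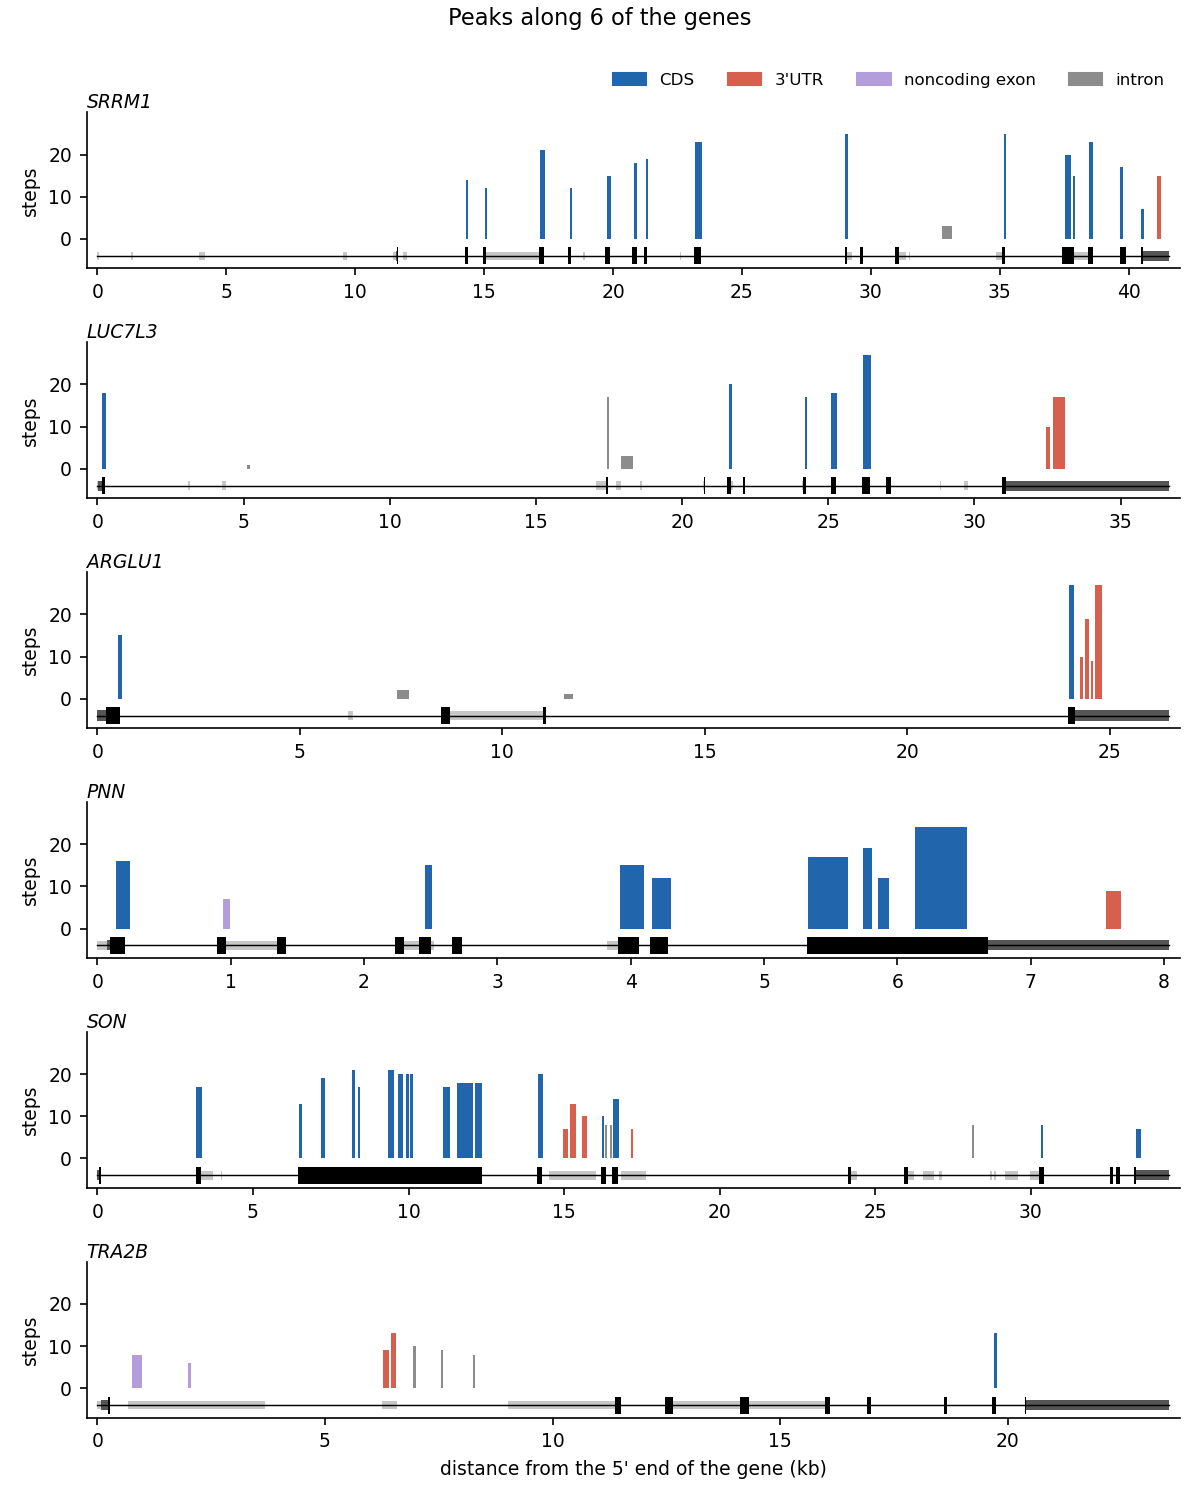
Peaks along 6 of the genes, with distance from the 5' end of the gene in kb on the horizontal axis and bar height in steps. The boxes under the bars are coding (black, tall) and untranslated (dark grey) exons of the canonical transcript and exons of other transcripts (light grey). Very narrow bars are widened to be visible. Tall bars stand on coding exons along SRRM1, PNN and the long exon of SON. The light grey exon of intron 1 in TRA2B carries lower bars, of 13 and 9 steps. The CDS peak of TRA2B stands at 13 steps and its intron peaks at 8 to 10.

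To compare the genes on a common scale, the coding bases of the canonical transcripts were counted under peaks. The 10 genes had 34.2% of 26511 coding nt under peaks and 2.79 CDS peaks per kb, and 47 of their 103 coding exons were touched. The SR splicing factors had 18.1% and 1.53 per kb, the hnRNP genes 5.29% and 0.677 per kb, and the other speckle genes 17.2% and 1.62 per kb. By gene the covered share was 57.1% in PNN, 56.1% in SRRM1, 49.8% in LUC7L3, 34.0% in SRRM2, 32.8% in SON, 22.5% in ARGLU1, 21.6% in LUC7L2, 3.47% in TRA2B and 0 in LUC7L and TRA2A. Of 3657 other genes with any coding base under a peak, whose median was 6.19%, 15 exceeded PNN and SRRM1 and 30 exceeded LUC7L3. The 10 genes were chosen by their content of peaks in this list, so high values here follow in part from that choice. They are given as a description, and transcript abundance was not taken into account. Of the 74 CDS peaks, 49 lay wholly within exons and 25 reached past an exon edge.

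A base count then asked whether the covered coding bases differed in makeup from the rest of the same genes. A and G made up 56.8% (55.8 to 57.8) of the covered bases and 53.4% of the others, a difference of 3.35 percentage points. It shrank to 1.13 points with peaks extended by 50 nt and to 1.69 without PNN. The difference was not shared by all genes. It was 12.6 points in ARGLU1, 10.7 in PNN, 5.53 in SON, 4.62 in LUC7L2 and 2.47 in LUC7L3, but -0.60 in SRRM1 and -0.06 in SRRM2, whose covered bases were no richer in A and G than the rest. In TRA2B it was -21.3 on 30 covered bases. In 3078 other genes the median difference was 0.931 points, with quartiles of -3.34 and 5.11.

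The codons under peaks, read in the canonical frame, showed which residues these bases encode. Lysine and glutamate made up 17.9% (16.6 to 19.3) of covered codons and 13.04% of the others over all genes, and their share was higher under peaks in 6 of the 8 genes with covered codons. The difference ran from 1.32 percentage points in SRRM2 and 1.86 in SRRM1 through 6.43 in SON, 6.49 in LUC7L2 and 7.68 in PNN to 15.1 in ARGLU1, while it was -2.55 in LUC7L3 and -6.47 in TRA2B, which has 10 covered codons. Arginine and serine made up 33.3% (31.7 to 35.1) of covered codons and 29.6% of the others. By gene the difference was 12.0 points in LUC7L2, 11.3 in SON, 6.28 in LUC7L3, 5.70 in PNN and 1.47 in SRRM2, and 41.2 in TRA2B on its 10 codons. It was -0.20 in SRRM1 and -17.5 in ARGLU1, where 16.1% of covered and 33.6% of other codons encoded them. The pooled value depends on SON, which has many covered codons and a low share overall. Without SON the difference over the genes was 0.59 percentage points. The intervals for bases and codons count neighbours as independent and leave out the spread between genes. They therefore cannot decide whether such differences are other than 0.

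**Figure D5:**
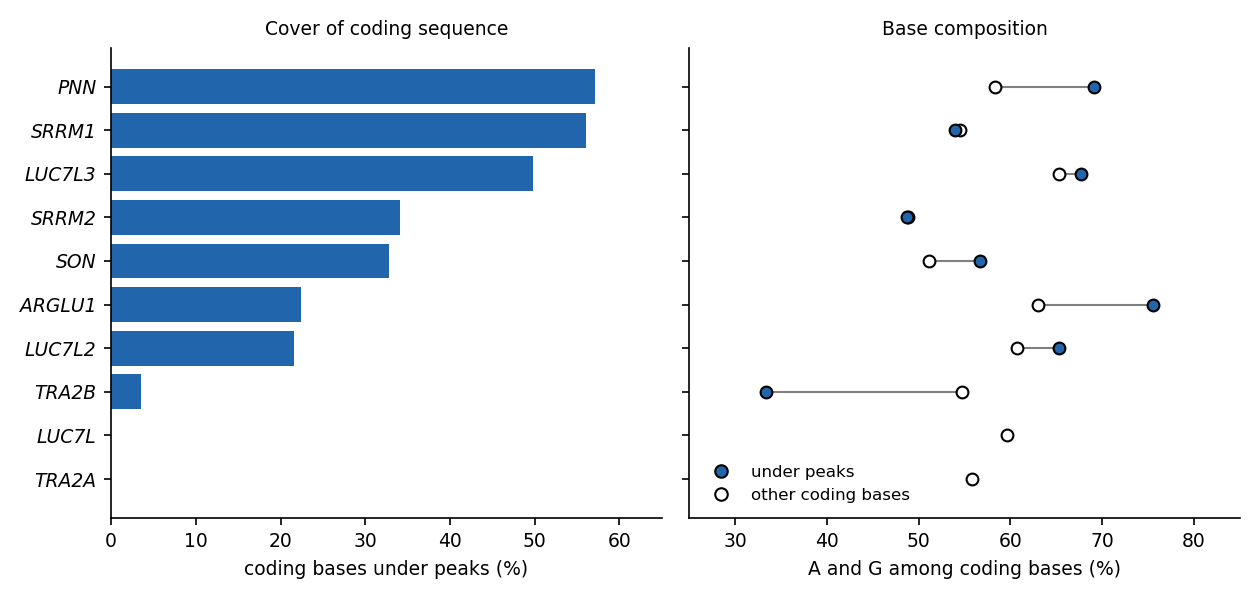
Left, share of canonical coding bases under peaks (%) for each gene. Right, share of A and G (%) among covered coding bases (filled) and the other coding bases (open) of the same gene, with filled points far to the right in ARGLU1 and PNN, on top of the open ones in SRRM1 and SRRM2, and absent where no coding base was covered.

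UGUA, the sequence that NUDT21 recognises, was searched on the gene strand as TGTA in the reference. It was present in 33 of the 111 peaks (29.7%, 21.4 to 39.1) and, on the opposite strand, in 22 (19.8%). In other peaks in genes with lengths within 10% of a member's, 36.3% held it. When single genes were left out, the share of the 111 peaks ran from 25.3% (without SON) to 37.6% (27.4 to 48.8, without SRRM2). The pooled share therefore lay below 36.3% only with SRRM2 included. The like-length share was not taken anew without SRRM2. The regions differed. Of the CDS peaks, 12 of 74 held UGUA (16.2%, 8.67 to 26.6), against 21.2% of other CDS peaks and 24.9% of those of like length. On the opposite strand 13 of the 74 held it. Of the 3'UTR peaks, 11 of 16 held UGUA on the gene strand (68.8%, 41.3 to 89.0). The share was 50.8% in other 3'UTR peaks and 50.1% at like length. Of the intron peaks 10 of 16 held it (62.5%, 35.4 to 84.8), against 62.6% of other intron peaks. The other intron peaks were longer, with a median of 263 against 57 nt, and at like length their share was 41.2%.

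The density of UGUA was lower inside exonic peaks than in the other exonic sequence of the 10 genes, at 1.99 and 5.68 per kb. Peaks were mostly coding, however, and the other exonic sequence was mostly not. Within coding bases alone the densities were 1.103 and 1.89 per kb (ratio 0.583, 0.256 to 1.21), and within 3'UTR bases 5.29 and 9.40 per kb (0.563, 0.286 to 1.005). Both of these ratios had intervals that reached 1, so no difference was detectable there from 10 and 12 motifs in peaks.

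Of the 33 peaks with UGUA, 11 lay in 3'UTRs, 12 in CDS and 10 in introns. To show the motif in 3'UTRs, 30 nt around it are given for the tallest such peak by gene. They come from SRRM1 (15 steps), SRRM2 (14 steps), ARGLU1 (27 steps), LUC7L3 (17 steps), SON (13 steps) and PNN (9 steps, the first of 3 motifs).
SRRM1 chr1:24672899-24672928: gtttatattgatgTGTAacaagttgatttg
SRRM2 chr16:2771220-2771249: tgggactggaggtTGTAtaaggtgttcttg
ARGLU1 chr13:106543354-106543383: gcattccccattgTGTAaataaatgatttt
LUC7L3 chr17:50752410-50752439: aaaacttaggtccTGTAtcatacttttttc
SON chr21:33558294-33558323: tgactttgctttaTGTAtcagacctcatca
PNN chr14:39182756-39182785: tttaaggaagtatTGTAtggaagtccacaa

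GAAGAA, a purine-rich sequence of the kind that TRA2 proteins bind, was searched in the same way. It was present on the gene strand in 21 of the 74 CDS peaks (28.4%, 18.5 to 40.1) and on the opposite strand in 5 (6.76%). In other CDS peaks the shares were 14.7% and 4.14%, and in those of like length the gene-strand share was 16.7%. SON supplied 7 and PNN 4 of the 22 peaks with GAAGAA on the gene strand over all regions. GAAGAA was not counted in the uncovered coding sequence of the same genes, so the part of their general makeup in these shares was not tested. A match describes these letters under a peak and is not a binding site.

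Each of the 95 exonic peaks was also measured to the nearest annotated transcript end of its gene, with the ends of NMD and retained-intron models included, some of which lie in coding exons. A distance of 150 nt or less was found for 29 peaks (30.5%, 21.5 to 40.8), and the median was 358 nt. Of all exonic bases of the 10 genes 26.9% lay that close to such an end, a share within the interval of the peaks. The share of exonic peaks was 36.4% in the SR splicing factors, 34.5% in the hnRNP genes and 32.04% in the other speckle genes, and each of their intervals held the value of the 10 genes. Of the 29 near peaks, 21 lay in CDS. For the 16 3'UTR peaks the median was 163 nt and 8 lay within 150 nt. Against the end of the canonical transcript alone, none of the 84 peaks in its exons lay within 150 nt (upper limit 4.30%), and the nearest 3'UTR peak, in SRRM2, lay 174 nt away. All 29 short distances were thus to ends of other annotated transcripts.

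The 16 intron peaks fell into a lower and a taller set. The 7 of 3 steps or fewer lay in SRRM1, ARGLU1, LUC7L2 and LUC7L3. The 9 of 5 or more steps lay in TRA2A, TRA2B, SON and LUC7L3, and 6 of them had a length of 48 or 49 nt, where 48 nt is the shortest in the list. UGUA was present in 4 of these 9. Among them was the SON peak at chr21:33559501-33559548, with 8 steps and 2 copies of UGUA, which lay 39 nt from the nearest exon in canonical intron 5.
SON chr21:33559501-33559548: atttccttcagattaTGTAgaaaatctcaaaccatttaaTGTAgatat

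As a check of the cell type, peaks were counted in T cell genes, where CD3E held 3, PTPRC 8 and BCL11B 6, while CD3D, LCK and TRAC held none. Peak calls depend on the amount of RNA as well as on any contact, so these counts are no measure of expression. In the related families the tallest peaks were those of SRSF2 (34 steps), SRSF11 (30) and SRSF1 (24), of HNRNPDL (30), HNRNPD (20) and HNRNPA2B1 (19), and of MALAT1 (45), ZRANB2 (21) and PRPF38B (20, with the higher fold enrichment of 2 genes at that height). SRSF11 was the only one of these 9 genes whose tallest peak had an FDR under 0.05, at 0.00902. By number of peaks among 6476 protein-coding genes with any peak, SRRM2 ranked 18 and SON 24, and by height LUC7L3 and ARGLU1 shared rank 21.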

How the data were processed

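NUDT21 eCLIP-seq was analysed from the peak list of 1 antibody library of J-Gamma1 cells. The 1 input library was not used here. The authors trimmed the reads with fastp, collapsed duplicates by their unique molecular identifiers, discarded rRNA reads, mapped the remainder to hg38 and called peaks with MACS2 (local windows of 1000 and 10000 nt, stated q-value threshold 0.05). The aligner and the use of the input as control are not given in the sources used here. The deposited values are a fold enrichment, a p-value, an FDR (a q-value) and a Score, used as a signal because its unit is not stated. The local backgrounds given here rest on reading the Score as a peak's pileup, which was assumed. Every deposited score was within 0.006 of a whole multiple of 0.228. The list gives neither strand nor depth, and a peak's height depends on how abundant its transcript was as well as on contact.

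Peak midpoints were assigned with GENCODE 44 (all transcripts) in the order CDS, 3'UTR, 5'UTR, noncoding exon, intron. Local background was solved as Score plus 1 over fold enrichment, minus 1. The genes are human, from an established line, and the groups came from the treatment label. Shares have exact 95% intervals. Peaks are not replicates and no test was made. The members and all gene lists were chosen with earlier results of these data known. Genes named were all 10 members with their tallest peaks, all their peaks with an FDR under 0.05, their tallest 3'UTR peaks and the 3 genes with the tallest peak of each related family. Alternatives were 3'UTR precedence, the canonical transcript alone, other limits on FDR, fold enrichment and steps, merging within 100 nt, the central 100 nt, extension by 50 nt, other motifs and omission of each gene in turn. Densities in coding or 3'UTR bases alone, the omission of SRRM2 and SON together and that of MALAT1 were chosen after seeing the data. Motif density and base composition were tested on a simulated plus-strand gene. That gene was coding throughout, so the assignment to regions was not tested. The software was scipy 1.17.1, biopython 1.88, pandas 2.3.3, matplotlib 3.10.9, numpy 2.4.6 and pysam 0.24.0 under Python 3.11.15.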

Additional observations from a re-analysis of the deposited data

How the results depend on the processing

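Over 73 alternatives apart from the omission of single genes, 54 values stayed within the counting interval of the value reported, 19 moved beyond it and none changed direction. Of the 54, 8 equalled the value reported, mostly because all 74 CDS peaks already passed the limits on steps and fold enrichment, and these show nothing about stability. With an FDR under 0.05, 6 peaks were left, of which 100% lay in CDS, 0 in 3'UTRs and 0 in introns. With 3'UTR before CDS, the shares were 44.1% for CDS and 35.1% for 3'UTRs, and with the canonical transcript alone the intron share was 24.3%. Without SRRM2 and SON the CDS share was 55.7%. With a fold enrichment of at least 2, 100% of the peaks reached 5 steps, which the formula of the ratio fixes. The share of peaks with UGUA was 54.1% after extension by 50 nt, 17.1% for UGUAA or UGUAU and 19.8% on the opposite strand. The UGUA density ratio was 0.583 in coding bases only and 0.563 in 3'UTR bases only, against 0.350. The A and G difference was 1.13 points after extension by 50 nt, and it ran from 1.69 (without PNN) to 4.86 (without SRRM2) when 1 gene was left out. The arginine and serine difference was 0.64 points for the central 100 nt of each peak and 0.165 without SRRM2 and SON, and it ran from 0.593 (without SON) to 4.76 (without SRRM2). The share of exonic peaks near a transcript end was 0 with the canonical transcript alone and 48.4% within 300 nt. The share in exons of noncoding transcripts alone ran from 1.94% (without TRA2B) to 6.90% (without SON), and was not run for the canonical transcript, where it is 0 by construction. No paired analysis was possible because each group has 1 sample and only 1 of them has a peak list. The cause of these shifts was not tested, except that fewer peaks or other sequence enter by construction.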
